A study of Arabidopsis thaliana with 9 samples.

Results

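The morning clock genes considered here are 9 loci of *Arabidopsis thaliana*, picked by gene identifier with earlier results of these data known. The members are *CCA1* (AT2G46830), *LHY* (AT1G01060), *PRR9* (AT2G46790), *PRR7* (AT5G02810), *RVE8* (AT3G09600), *RVE4* (AT5G02840), *RVE6* (AT5G52660), *LNK1* (AT5G64170) and *LNK2* (AT3G54500). They are 9 of the 37336 genes in the files, and all of them passed the filter on low counts. Their mRNA was counted in 9 libraries, 3 biological replicates each of *zmp-2*, *zmp-1* and WT. All plants were of the Col-0 ecotype and were grown under long days of 16 h light and 8 h dark at 23 °C. The mutants carry different T-DNA insertions, each represented by a single line, in *ZMP* (AT5G63700), which encodes a protein with a zinc finger and other conserved domains. The labels give seedlings at an age of 12 days for every library, and a figure legend of the study also names WT seedlings for its RNA-seq. The methods for mRNA-seq name inflorescences instead. The hour of collection is not given in the sources used here.

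The plant circadian clock is a loop of transcription factors that repress and activate each other in turn through the day. CCA1 and LHY, MYB-like proteins whose transcripts peak around dawn, repress genes of the evening by binding a short promoter sequence called the evening element. PRR9 and PRR7 accumulate next and repress *CCA1* and *LHY* during the day, while RVE8, RVE4 and RVE6, relatives of CCA1, activate evening genes together with the co-activators LNK1 and LNK2. In a plant sampled at a single hour, the ratio of dawn to evening transcripts is a common sign of the phase at which the tissue was collected.

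Short promoter sequences are shown first, because clock proteins act through such sites, although none of those searched was in all 9 members. Windows from 250 bases before to 50 bases after the annotated start of each gene were read from TAIR10.1 and searched on both strands for the evening element AAAATATCT, the CCA1-binding site AAAAATCT and the G-box CACGTG, a sequence bound by light-signalling transcription factors. None of these motifs contains another. A G-box was found in 7 of the 9 members, against 7.68% of the windows of 27443 protein-coding genes. Wholly before the start it was found in 4 members, *LHY*, *CCA1*, *PRR9* and *PRR7*, against 6.49% of those genes. *PRR9* held 2 of them, a number reached by 1.06% of the windows. The evening element was found in 1 member (*PRR9*) against 2.82% of the windows, and the CCA1-binding site in 1 member (*RVE6*) against 7.88%. The evening element of *PRR9* lay within the transcribed part, starting 26 bases after the first base of the gene. Wholly before the start it was found in 0 members, against 2.36% of genes. *RVE4* held none of these letters. The 250 bases before the start of *CCA1* and *LHY* are printed in full, and a short stretch around each match in the other members, 5′ to 3′ on the strand of the gene, with the motif in capitals:
CCA1, G-box, chr2:19245341-19245590, plus strand: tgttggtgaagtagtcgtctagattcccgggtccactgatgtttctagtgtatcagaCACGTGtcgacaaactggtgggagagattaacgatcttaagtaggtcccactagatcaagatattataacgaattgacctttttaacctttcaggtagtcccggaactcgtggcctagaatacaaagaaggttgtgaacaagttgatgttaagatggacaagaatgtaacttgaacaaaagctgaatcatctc
LHY, G-box, chr1:37872-38121, minus strand: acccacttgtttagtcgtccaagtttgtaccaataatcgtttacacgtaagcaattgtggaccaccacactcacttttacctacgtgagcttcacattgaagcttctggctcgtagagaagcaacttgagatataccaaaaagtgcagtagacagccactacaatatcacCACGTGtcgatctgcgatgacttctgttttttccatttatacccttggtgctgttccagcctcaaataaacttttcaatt
PRR9, distal G-box, chr2:19232353-19232378, plus strand: aatagaaaccCACGTGtcatccacat
PRR9, proximal G-box, chr2:19232425-19232450, plus strand: aggttaatgaCACGTGttaaggtgga
PRR9, evening element read on the opposite strand, chr2:19232623-19232651, plus strand: ttctctgagaAGATATTTTcgtggttgtg
PRR7, G-box, chr5:642216-642241, minus strand: cccaccattaCACGTGtcagttcaaa
RVE8, G-box, chr3:2946240-2946265, plus strand: tacaagtctaCACGTGcttcaagctt
RVE6, CCA1-binding site, chr5:21362314-21362341, minus strand: acataaatggAAAAATCTttattataaa
LNK1, G-box, chr5:25676810-25676835, minus strand: atttagttgcCACGTGttgatatcat
LNK2, G-box, chr3:20179031-20179056, minus strand: actcgtttggCACGTGaccatttcat

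A match is a stretch of letters, and binding was not measured in these libraries. The G-boxes of *RVE8* and *LNK2* lay within the transcribed part, starting 11 and 24 bases after the first base of the gene, and that of *LNK1* spanned the start.

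**Figure D1:**
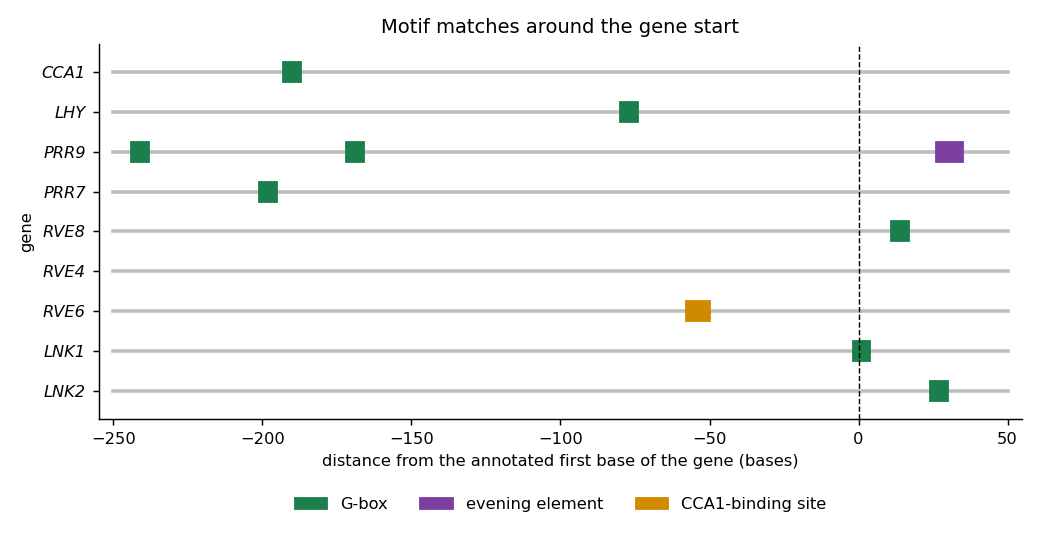
Motif matches from 250 bases before to 50 bases after the annotated first base of each member (dashed line), with distance in bases on the x axis and 1 line per gene. G-boxes stand before the start in *CCA1*, *LHY*, *PRR9* and *PRR7*, and at or after it in *RVE8*, *LNK1* and *LNK2*.

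The libraries held between 5815211 and 25182435 counts on genes, of which 57.3% to 67.6% fell on chloroplast and mitochondrial genes. Levels are given as TMM-scaled CPM, the count per 1000000 counts of the library after edgeR's TMM factor, and the floor, set at 3 counts, was worth between 0.126 and 0.530 TMM-scaled CPM. Poisson intervals of single libraries and floors cover counting error only, whereas confidence intervals of fold changes also take in the spread between replicates. *ZMP* had 1.502, 1.002 and 1.325 TMM-scaled CPM in *zmp-2* plants, 2.14, 3.00 and 2.83 in *zmp-1* plants and 5.53, 6.76 and 7.48 in WT, so that the groups matched their labels. It fell by 2.35 on the log2 scale in *zmp-2* (adjusted p = 0.0101, edgeR). In *zmp-1* its log2 fold change of −1.35 had an adjusted p of 0.155. The flower identity genes *AP1*, *AP3*, *PI*, *AG*, *SEP1*, *SEP2* and *SEP3* summed to 1.64 to 1.79 TMM-scaled CPM in *zmp-2*, 1.34 to 3.40 in *zmp-1* and 1.62 to 3.05 in WT. *AG*, which specifies stamens and carpels, had 0 counts in all 9 libraries. Transcripts of *RBCS1A*, *LHCA4* and *PSBO1*, which mark green tissue, summed to 3605 to 4961 TMM-scaled CPM in *zmp-2*, 3980 to 4297 in *zmp-1* and 3138 to 4714 in WT. The root genes *PIN2*, *SCR*, *COBL9* and *EXPA7* summed to 4.09 to 6.23 TMM-scaled CPM in *zmp-2*. Their sum was 4.25 to 9.01 in *zmp-1* and 5.05 to 8.99 in WT.

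*CCA1* and *LHY* were low in every library. *CCA1*, on chromosome 2 from 19245591 to 19248915 on the plus strand, had 1.84, 5.86 and 3.38 TMM-scaled CPM in *zmp-2* plants (replicates 1 to 3), 1.80, 1.94 and 4.53 in *zmp-1* plants and 1.81, 5.38 and 13.0 in WT. The replicates of WT thus spanned a 7.19-fold range, from a level like the lowest mutant libraries to the highest of all 9, and the genotypes overlapped. The mean was 3.69 ± 2.03 TMM-scaled CPM in *zmp-2*, 2.76 ± 1.54 in *zmp-1* and 6.74 ± 5.73 in WT (SD, n = 3 each). Relative to WT, the log2 fold change of *CCA1* was −0.86 in *zmp-2* (standard error 0.603, 95% confidence interval −2.18 to 0.45, adjusted p = 0.613 by edgeR's quasi-likelihood test) and −1.33 in *zmp-1* (standard error 0.645, −2.74 to 0.08, adjusted p = 0.556). The size of both depended on single libraries. Without WT replicate 3 the log2 fold change of *CCA1* was 0.00 in *zmp-2* and −0.47 in *zmp-1*. Without *zmp-2* replicate 2 it was −1.35 in *zmp-2*, and without *zmp-1* replicate 3 it was −1.85 in *zmp-1*.

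*LHY*, the close relative of *CCA1* on chromosome 1 from 33365 to 37871 on the minus strand, rested on 3, 23 and 10 counts in *zmp-2* plants, 13, 3 and 7 in *zmp-1* plants and 11, 16 and 32 in WT. These were 0.205, 1.77 and 0.662 TMM-scaled CPM in *zmp-2* plants, 0.544, 0.530 and 0.992 in *zmp-1* plants and 1.05, 1.05 and 3.23 in WT. WT replicate 3 was again the highest library, and all *zmp-1* libraries lay below all WT libraries. The gap was within counting error, with a 95% Poisson interval of 0.399 to 2.04 TMM-scaled CPM for *zmp-1* replicate 3 and 0.524 to 1.88 for WT replicate 1. The difference of *LHY* from WT on the log2 scale was −1.004 in *zmp-2* (standard error 0.673, 95% confidence interval −2.48 to 0.47, adjusted p = 0.596, edgeR) and −1.38 in *zmp-1* (standard error 0.729, −2.97 to 0.21, adjusted p = 0.593). Without WT replicate 3 these values were −0.27 and −0.65. Without *zmp-2* replicate 2 the value in *zmp-2* was −1.98, and without *zmp-1* replicate 3 that in *zmp-1* was −1.68.

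**Figure D2:**
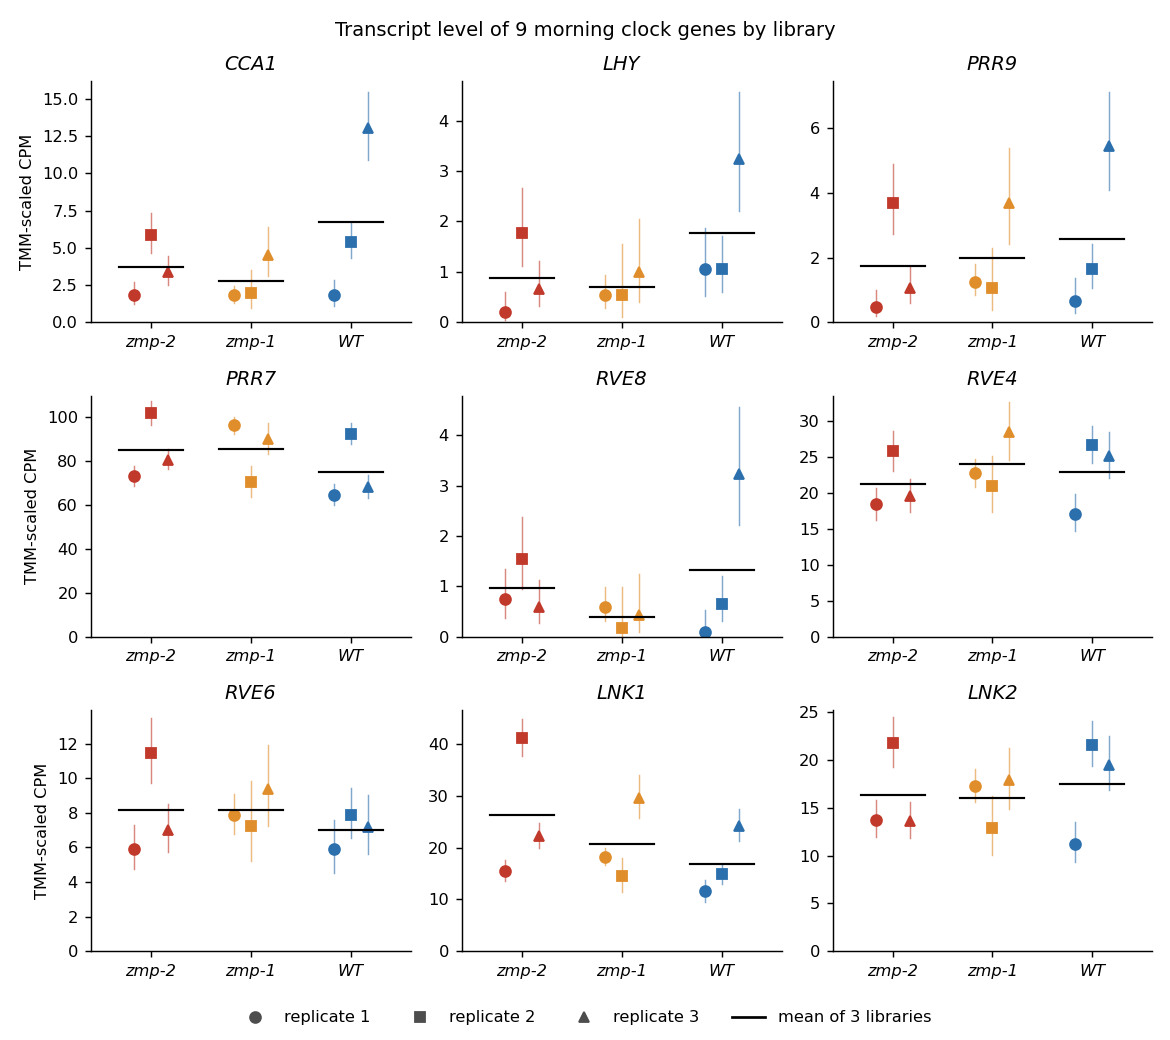
Level of each member in TMM-scaled CPM (y axis, linear, from 0) in *zmp-2*, *zmp-1* and WT, with a point per replicate library, a thin line for its 95% Poisson interval and a black bar for the mean of 3 libraries. WT replicate 3 is the highest library in *CCA1*, *LHY*, *PRR9* and *RVE8*, while *zmp-2* replicate 2 is the highest in *PRR7*, *RVE6*, *LNK1* and *LNK2*.

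The pseudo-response regulators differed in level and in spread. *PRR9*, on chromosome 2 from 19232607 to 19235179 on the plus strand, had 0.478, 3.70 and 1.06 TMM-scaled CPM in *zmp-2* plants, 1.26, 1.06 and 3.68 in *zmp-1* plants and 0.667, 1.64 and 5.46 in WT. Each genotype held 1 library well above its other libraries, namely *zmp-2* replicate 2, *zmp-1* replicate 3 and WT replicate 3, and the groups overlapped fully. The range within WT was 8.17-fold. The log2 fold change of *PRR9* was −0.56 in *zmp-2* (95% confidence interval −2.30 to 1.18, adjusted p = 0.828, edgeR) and −0.40 in *zmp-1* (−2.19 to 1.40, adjusted p = 0.918), and both turned positive without WT replicate 3, with 0.53 and 0.70.

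*PRR7*, the member with the most transcript, lies on chromosome 5 from 637681 to 642030 on the minus strand. It had 73.1, 102 and 80.6 TMM-scaled CPM in *zmp-2* plants, 96.2, 70.3 and 89.99 in *zmp-1* plants and 64.6, 92.4 and 68.2 in WT. The highest and lowest WT libraries differed 1.43-fold, and the order of the libraries was not that of *PRR9*, since WT replicate 3 lay near the bottom. *PRR7* had a log2 fold change against WT of 0.18 in *zmp-2* (standard error 0.199, 95% confidence interval −0.26 to 0.62, adjusted p = 0.771, edgeR) and 0.19 in *zmp-1* (standard error 0.200, −0.25 to 0.63, adjusted p = 0.820).

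Among the REVEILLE genes, *RVE8* was near the floor. It lies on chromosome 3 from 2946239 to 2949017 on the plus strand and had 11, 20 and 9 counts in *zmp-2* plants, 14, 1 and 3 in *zmp-1* plants and 1, 10 and 32 in WT. In TMM-scaled CPM these were 0.751, 1.54 and 0.596 in *zmp-2* plants, 0.586, 0.177 and 0.425 in *zmp-1* plants and 0.0953, 0.656 and 3.23 in WT. WT held both the lowest and the highest library, and 3 of the 9 values were at or under the floor. For *RVE8* the log2 fold change was −0.43 in *zmp-2* and −1.49 in *zmp-1* (edgeR, adjusted p = 0.876 and 0.651), with 95% confidence intervals of −2.20 to 1.34 and −3.49 to 0.51. Without WT replicate 3 they were 1.22 and 0.15.

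*RVE4*, on chromosome 5 from 648648 to 651979 on the plus strand, had 18.4, 25.8 and 19.6 TMM-scaled CPM in *zmp-2* plants, 22.8, 21.0 and 28.5 in *zmp-1* plants and 17.2, 26.7 and 25.2 in WT. *RVE6*, on chromosome 5 from 21359001 to 21362273 on the minus strand, had 5.94, 11.5 and 7.02 TMM-scaled CPM in *zmp-2* plants, 7.87, 7.25 and 9.35 in *zmp-1* plants and 5.91, 7.87 and 7.17 in WT. In both genes *zmp-2* replicate 2 was the highest *zmp-2* library and *zmp-1* replicate 3 the highest *zmp-1* library, and the genotypes overlapped. The log2 fold change of *RVE4* was −0.12 in *zmp-2* (95% confidence interval −0.56 to 0.33) and 0.06 in *zmp-1* (−0.39 to 0.52). That of *RVE6* was 0.21 in *zmp-2* (95% confidence interval −0.33 to 0.76) and 0.22 in *zmp-1* (−0.34 to 0.78).

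The co-activator genes *LNK1* and *LNK2* were at intermediate levels. *LNK1*, on chromosome 5 from 25672466 to 25676823 on the minus strand, had 15.5, 41.1 and 22.3 TMM-scaled CPM in *zmp-2* plants, 18.2, 14.5 and 29.6 in *zmp-1* plants and 11.5, 14.8 and 24.1 in WT. As in *PRR9*, the high libraries were *zmp-2* replicate 2, *zmp-1* replicate 3 and WT replicate 3. The mean was 26.3 ± 13.3 TMM-scaled CPM in *zmp-2*, 20.8 ± 7.88 in *zmp-1* and 16.8 ± 6.54 in WT (SD, n = 3 each). The log2 fold change of *LNK1* against WT was 0.64 in *zmp-2* (standard error 0.376, 95% confidence interval −0.18 to 1.47, adjusted p = 0.530, edgeR), and 0.31 in *zmp-1* (standard error 0.381, −0.53 to 1.14, adjusted p = 0.847). The value in *zmp-2* was 0.17 without *zmp-2* replicate 2 and 0.99 without WT replicate 3. *LNK2*, on chromosome 3 from 20175370 to 20179070 on the minus strand, had 13.7, 21.7 and 13.6 TMM-scaled CPM in *zmp-2* plants, 17.3, 12.9 and 17.9 in *zmp-1* plants and 11.3, 21.6 and 19.5 in WT. Its libraries were mixed across the genotypes, and its log2 fold change was −0.10 in *zmp-2* (95% confidence interval −0.67 to 0.47) and −0.12 in *zmp-1* (−0.70 to 0.46). *LNK1* overlaps AT5G64160 over 245 bases, and *LNK2* overlaps AT3G54490 and AT3G08405 over 266 bases, all on the opposite strand. Since the strand that was counted is not stated, the reads of these stretches cannot be assigned, whereas the other 7 members overlap no annotated gene.

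Levels of different genes were compared per kilobase of exon, as the mean of all 9 libraries. *PRR7* was first with 25.3 TMM-scaled CPM per kb, followed by *RVE4* with 10.8, *LNK1* with 7.99, *LNK2* with 5.68, *RVE6* with 4.69, *CCA1* with 1.62, *PRR9* with 0.987, *RVE8* with 0.382 and *LHY* with 0.326. *PRR7* and *RVE4* were the only neighbours in this order whose ranges did not overlap, with a lowest *PRR7* library of 19.996 and a highest *RVE4* library of 13.5. The other neighbours kept their order in 8 or 9 of the 9 libraries, except *RVE8* and *LHY*, which kept it in 5. On the same scale, 12 evening genes ran from 2.56 for *BOA* to 44.1 for *TOC1*, a repressor of *CCA1* and *LHY*. Only *TOC1* and *ELF4* (43.1), a subunit of the evening complex, had a mean above that of *PRR7*, and *GI*, a regulator of flowering and of the clock, had 15.0.

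No member was called in any comparison between genotypes. Of all genes tested, 0.177% were called in *zmp-2* against WT, 0.0442% in *zmp-1* against WT and 0.0221% in *zmp-2* against *zmp-1*, so that 0 of 9 members is near this background. At an unadjusted p of less than 0.05 edgeR also had 0 of 9 members in each comparison, beside 12.1% of all genes in *zmp-2* against WT, 9.16% in *zmp-1* against WT and 4.36% in *zmp-2* against *zmp-1*. DESeq2 called 0 of 9 members in each, beside 1.21% of the genes to which it gave an adjusted p in *zmp-2* against WT, 0.609% in *zmp-1* against WT and 0.0885% between the alleles. The median log2 fold change of the members was −0.12 in *zmp-2* against WT, beside −0.02 for all genes, with 3 members positive and 6 negative. In *zmp-1* against WT the median was −0.12, beside −0.01 for all genes, with 4 positive and 5 negative. Both comparisons use the same WT libraries. The groups did not overlap in 0 members for *zmp-2* against WT, where 16.3% of all genes had no overlap. They did not overlap in 1 member (*LHY*) for *zmp-1* against WT, beside 12.6% of all genes, and in 1 member (*RVE8*) for *zmp-2* against *zmp-1*, beside 11.9%.

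**Figure D3:**
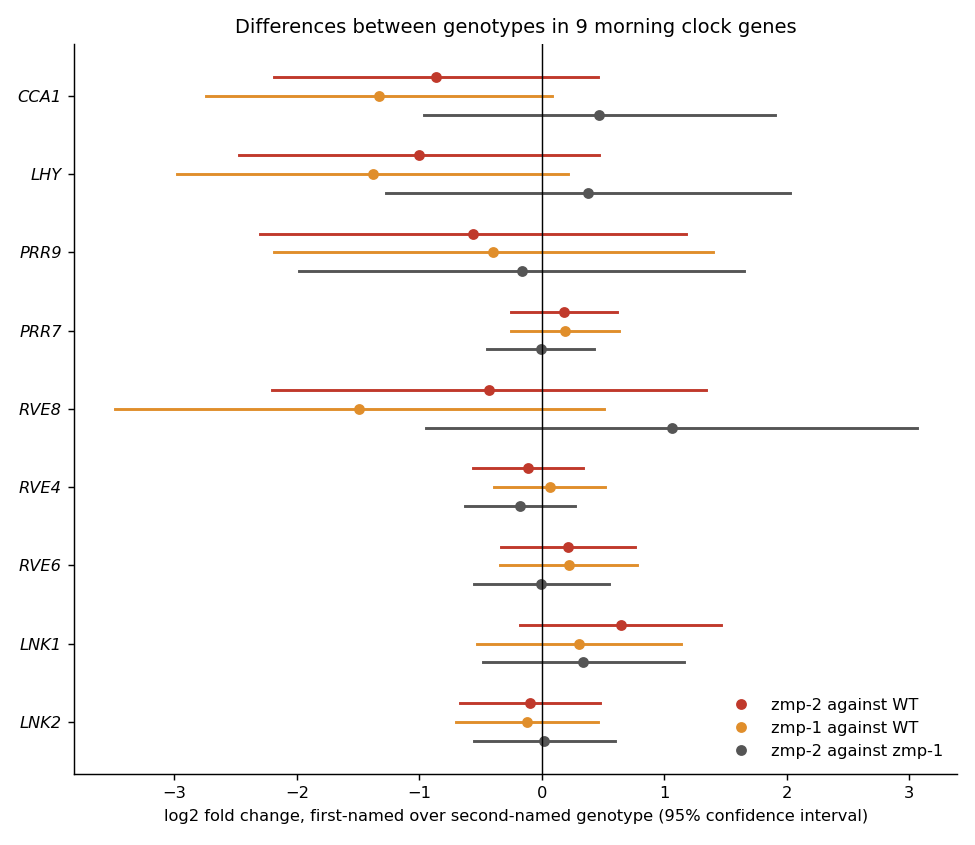
Log2 fold change of each member (x axis) between genotypes, with points for the estimate and bars for the 95% confidence interval, for *zmp-2* against WT, *zmp-1* against WT and *zmp-2* against *zmp-1*. Every interval crosses 0, and those of *CCA1*, *LHY*, *PRR9* and *RVE8* are the widest.

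The alleles were also compared directly. The log2 fold change of *zmp-2* over *zmp-1* was 1.06 for *RVE8* (standard error 0.917, 95% confidence interval −0.95 to 3.06), the largest of the members, in which the lowest *zmp-2* library had 0.596 and the highest *zmp-1* library 0.586 TMM-scaled CPM. It was 0.47 for *CCA1*, 0.38 for *LHY* and 0.34 for *LNK1*, and between −0.18 and 0.02 for the other 5 members. The adjusted p of all 9 was 1.00 (edgeR). The median was 0.02, against 0.00 for all genes.

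The members differed in how much their replicates varied. The biological coefficient of variation, edgeR's measure of the spread between replicates beyond counting noise, was 0.656 for *PRR9*, 0.668 for *RVE8*, 0.533 for *LHY* and 0.511 for *CCA1*. *CCA1*, the lowest of these, stood above 97.0% of all genes tested. Since low genes vary more, they were also compared with the trend at their level. The coefficient was 2.10 times the trend for *PRR9*, 2.02 times for *CCA1*, 1.82 times for *RVE8* and 1.48 times for *LHY*. *LNK1* had a lower coefficient of 0.323, but at 1.68 times the trend it stood further above it than *LHY*. *PRR7*, *RVE4* and *RVE6* lay below their trend, at 0.910, 0.971 and 0.969 times it, and *LNK2* at 1.16 times.

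The members largely moved together from library to library within a genotype, *PRR7* less so with *CCA1*, *LHY*, *PRR9* and *RVE8*. The deviation of each library from the mean of its genotype, on a log2 scale, was positive for all 9 members in *zmp-2* replicate 2 and in *zmp-1* replicate 3, and negative for all 9 in *zmp-2* replicate 1, *zmp-1* replicate 2 and WT replicate 1. WT replicate 3 was above its mean in every member but *PRR7*, with deviations of 1.94 in *RVE8*, 1.47 in *PRR9*, 1.33 in *CCA1* and 0.99 in *LHY*. In *zmp-2* replicate 2 the largest deviations were 1.42 in *PRR9*, 1.22 in *LHY* and 0.79 in *CCA1*. Over the 9 libraries the deviations of the 36 pairs of members had correlations between 0.35 and 0.98, with a median of 0.78. These points share library, depth and scaling, and the lowest genes rest on few counts, so that the values are a description. The highest value was that of *PRR9* with *LNK1*, 0.98, and the lowest that of *LHY* with *PRR7*, 0.35. With *CCA1*, the correlation was 0.963 for *PRR9*, a value exceeded by 0.0607% of all genes, and 0.901 for *LNK1*, exceeded by 0.558%. It was 0.839 for *LHY* and 0.394 for *PRR7*, which 21.1% of all genes exceeded. Morning clock genes outside the members had values from 0.12 for *RVE7* to 0.96 for *LNK3*, so that such a movement was not particular to the members. The median correlation of all genes with *CCA1* was −0.03. Whether the libraries were collected at different hours was not tested.

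**Figure D4:**
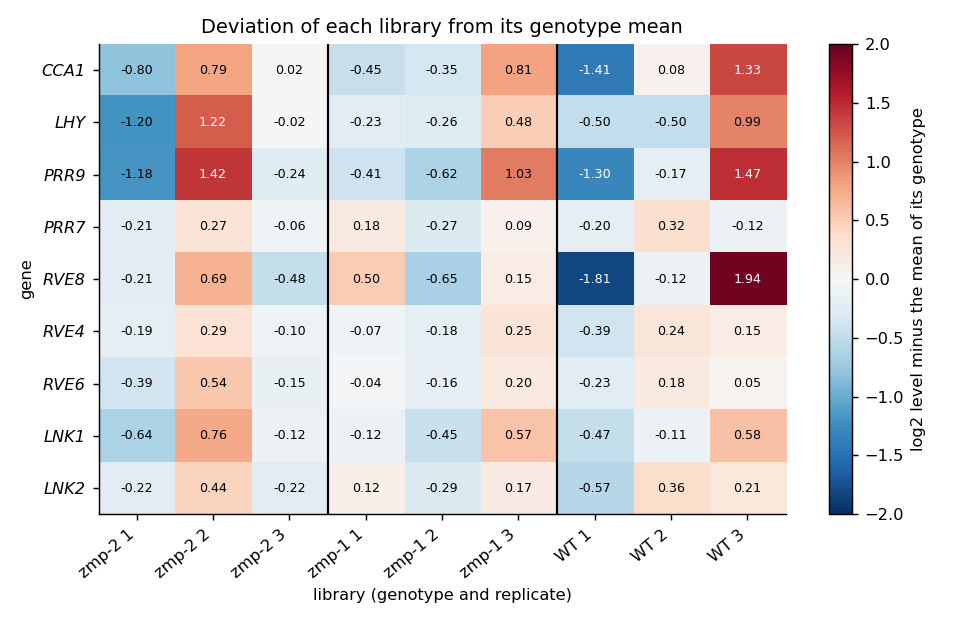
Deviation of each library (columns, in the order *zmp-2*, *zmp-1* and WT) from the mean of its genotype for each member (rows), as a log2 difference with its value in each cell and on the colour scale. The columns of *zmp-2* replicate 2 and *zmp-1* replicate 3 are above 0 throughout, and WT replicate 3 reaches 1.94 in *RVE8*.

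Other genes with a like pattern were ranked by their correlation, over the 9 libraries, with the mean log2 level of *CCA1* and *LHY*. Of 18100 genes, 22 had a value above 0.9. The first was *TAG1* (AT2G19450), a diacylglycerol acyltransferase of oil synthesis, with a correlation of 0.952 and levels from 11.4 to 20.1 TMM-scaled CPM. It was followed by AT3G48020 with 0.949, AT1G54050 with 0.945, *pPLAIIIbeta* (AT3G54950), a patatin-related phospholipase, with 0.931, and *GBSS1* (AT1G32900), the starch synthase that makes amylose, with 0.930. WT replicate 3 was the highest library in all 5. This follows in part from the ranking, since *CCA1* and *LHY* were themselves highest in that library. *LNK3*, a relative of *LNK1* and *LNK2*, was in place 9.

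Dawn and evening transcripts were set against each other in each library, as the sum of *CCA1* and *LHY* and the sum of *TOC1*, *GI*, *ELF4*, *LUX* and *PRR5*, per kb of exon. These evening genes did not all move against *CCA1* within a genotype. The correlation of their deviations with those of *CCA1* was −0.68 for *TOC1*, −0.53 for *ELF4* and −0.52 for *LUX*, but 0.74 for *PRR5* and 0.58 for *GI*. For the evening genes outside the sum it ran from −0.95 for *BOA* to 0.38 for *FKF1*. The dawn sum was 0.737, 2.67 and 1.43 TMM-scaled CPM per kb in *zmp-2* plants, 0.821, 0.869 and 1.96 in *zmp-1* plants and 0.972, 2.28 and 5.73 in WT. The evening sum was 164, 147 and 164 in *zmp-2* plants, 132, 142 and 145 in *zmp-1* plants and 117, 98.4 and 106 in WT. Evening transcripts thus exceeded dawn transcripts in every library, by 18.6-fold in WT replicate 3 and by 223-fold in *zmp-2* replicate 1. The dawn sums overlapped between the genotypes. All evening sums of *zmp-2* and *zmp-1* lay above those of WT. The genes summed were chosen with earlier results of these data known, and for *zmp-2* the separation depended on that choice. *TOC1* and *GI* alone gave 74.3, 51.5 and 62.2 TMM-scaled CPM per kb in *zmp-2* plants, 69.2, 59.4 and 62.4 in *zmp-1* plants and 52.8, 48.9 and 51.0 in WT, so that *zmp-2* replicate 2 lay among the WT libraries. In *zmp-2* against WT the summed genes had log2 fold changes of 1.05 (*PRR5*), 0.83 (*ELF4*), 0.45 (*GI*), 0.25 (*TOC1*) and −0.12 (*LUX*). Among the evening genes left out, *FKF1* had 0.86, and the others ran from −0.20 for *CHE* to 0.19 for *PRR3*. Single genes without overlap made up 16.3% of all genes in *zmp-2* against WT and 12.6% in *zmp-1* against WT. These shares are not a background for a sum of chosen genes. The log2 ratio of dawn to evening was −7.80, −5.78 and −6.84 in *zmp-2* plants, −7.33, −7.35 and −6.21 in *zmp-1* plants and −6.92, −5.43 and −4.21 in WT. Its mean was −6.81 ± 1.01 in *zmp-2*, −6.96 ± 0.65 in *zmp-1* and −5.52 ± 1.35 in WT (SD, n = 3 each), and the groups overlapped. *LUX* overlaps AT3G46650 on the opposite strand, so that its part in the sum is uncertain. In RNA drawn from many cells at once, a smaller number of cells that express a gene and less of its RNA per cell cannot be told apart.

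**Figure D5:**
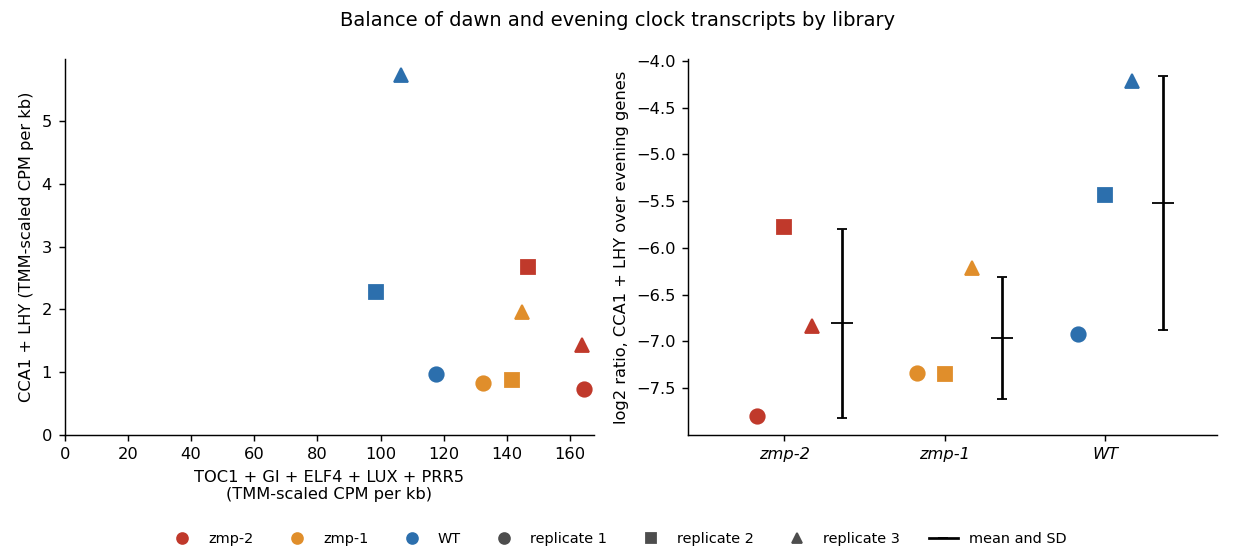
Left, the sum of *CCA1* and *LHY* (y axis) against the sum of 5 evening genes (x axis), both in TMM-scaled CPM per kb, with a point per library. Right, their log2 ratio by genotype with mean and SD; WT replicate 3 has the highest ratio, −4.21, and *zmp-2* replicate 1 the lowest, −7.80.

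The rest of the clock was read from lists of its genes. Of 7 other morning genes (*RVE1*, *RVE2*, *RVE7*, *ASG4*, AT4G01280, *LNK3* and *LNK4*), 6 were tested and 0 were called by edgeR in each comparison, with *ASG4* under the filter. At an unadjusted p of less than 0.05 there was 1 of 6, *RVE2*, in *zmp-2* against WT (log2 fold change 0.65, adjusted p = 0.323) and in *zmp-2* against *zmp-1* (0.74, adjusted p = 0.989). Of all genes, 12.1% and 4.36% were under that p in these comparisons. *RVE2*, a MYB-like relative of *CCA1*, had 16.7, 19.5 and 21.8 TMM-scaled CPM in *zmp-2* plants, 10.9, 12.7 and 11.3 in *zmp-1* plants and 10.2, 8.79 and 18.2 in WT, with no overlap between the alleles and an overlap between *zmp-2* and WT. Between the alleles 11.9% of all genes had no overlap. *RVE2* was picked by its p in these comparisons, so that its separation adds no support. *LNK3*, the most variable of them, had 0.956, 3.62 and 1.85 TMM-scaled CPM in *zmp-2* plants, 1.09, 1.24 and 1.70 in *zmp-1* plants and 0.763, 1.97 and 6.87 in WT, with WT replicate 3 again on top. All 12 evening genes were tested and 0 were called by edgeR. At an unadjusted p of less than 0.05 there were 4 in *zmp-2* against WT and 2 in *zmp-1* against WT, beside 12.1% and 9.16% of all genes. In *zmp-2* against *zmp-1* there were 2, *PRR5* and *FKF1*, beside 4.36% of all genes. The 4 genes in *zmp-2* were *PRR5*, a later relative of *PRR9* and *PRR7*, with a log2 fold change of 1.05 (adjusted p = 0.134), *ELF4* with 0.83 (0.134), *FKF1*, a blue light receptor of flowering, with 0.86 (0.168), and *GI* with 0.45 (0.321). In each of these genes all *zmp-2* libraries lay above all WT libraries, for example with 41.0, 55.1 and 60.02 TMM-scaled CPM of *PRR5* in *zmp-2* against 22.3, 20.2 and 33.2 in WT. The genes were picked by their p in this same comparison, so that the separation adds no support. Of all genes, 16.3% had no overlap between *zmp-2* and WT. With the replicate number as a block, edgeR called *PRR5* (log2 fold change 1.05, adjusted p = 0.0470) and no other evening gene. DESeq2 called 3 of them, *PRR5* (adjusted p = 0.00643), *ELF4* (0.0109) and *FKF1* (0.0334).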

How the data were processed

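Per the labels and the methods, mRNA-seq libraries were made from polyA RNA with the NEBNext Ultra kit and read as paired ends. After trimming with Trim Galore, the authors mapped the reads to TAIR10 with STAR 2.5.3a, counted them on Araport11 genes and deposited these counts without normalization. The strand that was counted is not given in the sources used here.

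Counts of 18109 genes kept by filterByExpr were scaled with TMM and fitted in R 4.3.3 with edgeR 4.0.16 (limma 3.58.1), with a quasi-likelihood model of 1 coefficient per genotype on all 9 libraries (common dispersion 0.0547). Two-sided tests were adjusted by Benjamini-Hochberg over all genes, and an adjusted p of at most 0.05 was a call. Replicates of a genotype differed by more than counting noise (lowest chi-square over its degrees of freedom, 7.34). Deviations and correlations used log2 CPM with a prior count of 2. Positions and promoter windows come from RefSeq's TAIR10.1 (all 9 members matched), and 483 of 483 genes with published coordinates lay within 1 base of it.

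The replicate number was not a factor in the model. Deviations of same-numbered libraries correlated above 0.1 in 3 of 3 pairs of *zmp-2* with WT (0.128 to 0.277, against −0.299 to 0.0760 for other numbers), so that the numbers in the labels were taken as a pairing there, in 0 of 3 pairs of *zmp-1* with WT and in 1 of 3 pairs of *zmp-2* with *zmp-1*. Alternatives were DESeq2 1.42.0, other scalings and filters, a replicate block, fits of 6 libraries, stricter calls and leaving out each library. The members and gene lists were chosen with earlier results of these data known. Named genes were the members, *ZMP*, the other clock genes that state a range or had an unadjusted p of less than 0.05, and the 5 genes most like *CCA1* and *LHY*.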

Additional observations from a re-analysis of the deposited data

How the results depend on the processing

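No member was called under any alternative. The counts over all genes moved most. In *zmp-2* against WT, 32 genes were called, against 218 with DESeq2, 130 with no filter, 20 with no TMM factor, 1 with a fit of the 6 libraries compared and 0 at an adjusted p of at most 0.01, and between 5 (without *zmp-2* replicate 2) and 110 (without WT replicate 1) with a library left out. In *zmp-1* against WT the 8 calls became 110 with DESeq2, 51 with no filter, 5 with at least 10 counts, 5 with 6 libraries and 0 at 0.01, and 0 (without *zmp-1* replicate 3) to 53 (without WT replicate 1) with a library left out. In *zmp-2* against *zmp-1* the 4 calls became 16 with DESeq2, 8 with no filter and 2 at 0.01, and 1 (without *zmp-2* replicate 2 or *zmp-1* replicate 3) to 27 (without *zmp-1* replicate 1) with a library left out. Of the other clock genes in *zmp-2*, 3 were called by DESeq2, 2 with no filter (*ELF4* and *PRR5*), 1 with the replicate block (*PRR5*, adjusted p = 0.0470) and 0 to 1 with a library left out. *ZMP* passed the threshold in *zmp-1* with DESeq2 (−1.37) and missed it in *zmp-2* with 6 libraries (−2.35, adjusted p = 0.0558). With only *TOC1* and *GI* as evening genes the mean log2 ratio was −5.45 in *zmp-2*, −5.83 in *zmp-1* and −4.45 in WT.

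Signs turned in 39 values of single genes, none of them called, and the cause was not tested. With no TMM factor, *RVE4* in *zmp-1* was −0.0564 and *PRR7* in *zmp-2* against *zmp-1* 0.00588. Between these alleles *PRR7* with no filter was 0.00155, *RVE6* was 0.00477 with upper-quartile scaling, 0.00568 with no filter and 0.00237 with at least 10 counts, and *LNK2* with the replicate block was −0.0347. With a library left out, the log2 fold change in *zmp-2* against WT ranged from −1.35 to 0.00166 for *CCA1*, −1.71 to 0.53 for *PRR9*, −0.97 to 1.22 for *RVE8*, −0.28 to 0.00837 for *RVE4*, −0.11 to 0.40 for *RVE6*, −0.35 to 0.0896 for *LNK2* and −1.16 to 0.60 for *LNK3*. In *zmp-1* against WT it ranged from −1.10 to 0.70 for *PRR9*, −2.02 to 0.15 for *RVE8*, −0.11 to 0.19 for *RVE4*, −0.0245 to 0.65 for *LNK1* and −0.35 to 0.0699 for *LNK2*. In *zmp-2* against *zmp-1* it ranged from −0.60 to 0.85 for *LHY*, −0.0205 to 0.99 for *CCA1*, −1.32 to 0.54 for *PRR9*, −0.16 to 0.0949 for *PRR7*, −0.33 to 0.18 for *RVE6*, −0.14 to 0.67 for *LNK1* and −0.23 to 0.14 for *LNK2*. The replicate block changed no call of a member or named gene other than *PRR5*, and in *zmp-1* against WT and *zmp-2* against *zmp-1*, where the numbers were not taken as a pairing, it gave 12 and 4 calls over all genes. Over all genotypes 6 of 9 libraries correlated best with their own number.

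Where a genotype kept 2 libraries, the spread was pooled over all genotypes. *LHY* and *RVE8* rest on as few as 3 and 1 counts in a library. A change of less than their intervals was not detectable at this depth and this spread between replicates.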

Other observations

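Of 10 genes known as outputs of the clock, 9 were tested and 0 were called by edgeR in the 3 comparisons, while *COL1* had 0 counts in every library and is covered by AT5G15845 on the opposite strand. *CDF1*, a repressor of flowering that is expressed in the morning, had 4.57, 7.17 and 5.17 TMM-scaled CPM in *zmp-2* plants, 5.32, 4.42 and 7.09 in *zmp-1* plants and 3.05, 3.35 and 4.55 in WT. Its log2 fold change was 0.63 in *zmp-2* (adjusted p = 0.368, edgeR) and 0.63 in *zmp-1* (adjusted p = 0.506).

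*RBCS1A*, a nuclear gene of the Rubisco small subunit, had 1758, 364 and 1366 TMM-scaled CPM in *zmp-2* plants, 1149, 999 and 503 in *zmp-1* plants and 1268, 391 and 1517 in WT. The lowest library of each genotype was *zmp-2* replicate 2, *zmp-1* replicate 3 and WT replicate 2. In *zmp-2* and *zmp-1* these were the libraries with the highest *CCA1*, *LHY*, *PRR9* and *LNK1*, whereas in WT the library with the highest of these genes, replicate 3, had the highest *RBCS1A*. *RBCS1A* was singled out after its values were seen.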
